A study of Mus musculus with 39 samples.

Results

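H3K27me3 was compared between the Oct4+ and Pdgfra+ populations of mouse naive extra-embryonic endoderm (nEnd), using the 6 peak lists that the labels assign to H3K27me3_Oct4 and H3K27me3_Pdgfra, 3 libraries in each, of 36 peak lists in the series. nEnd is a stem cell culture with the properties of early primitive endoderm (PrE), and the cells here came from the OCT4-mCherry reporter line, 1 line shared by both groups, without treatment. The culture was grown on mouse feeder fibroblasts in a medium with Activin A, CHIR99021 and LIF. Cells single positive for OCT4-mCherry (Oct4+) and cells single positive for PDGFRA-APC (Pdgfra+) were isolated by FACS and profiled by CUT&Tag, in which an antibody-tethered transposase cuts and tags DNA beside the marked nucleosomes. The study describes Oct4+ cells as de-differentiated and pluripotent, similar to naive embryonic stem cells. It describes Pdgfra+ cells as endoderm, with single-cell clusters that resemble late PrE. Double positive libraries, from the cells that it likens to early PrE, were not used. Each list was called against an IgG control with SEACR at its stringent setting, on mm10 (GRCm38), and gives for each peak its interval, total signal and maximum signal. The study describes tracks of active marks from these populations as made from biological replicates, but the labels name no separate cultures for the H3K27me3 libraries, so the spread between libraries may be partly technical, and the sequencing depth of each library is unknown.

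Trimethylation of lysine 27 of histone H3 is laid down by Polycomb repressive complex 2 (PRC2), whose catalytic subunit is EZH2 or EZH1. In embryonic stem cells it covers CpG-rich promoters of developmental regulators that are not transcribed, and it spreads over the whole gene at many Hox and other homeobox loci. Acetylation of the same lysine (H3K27ac) marks active promoters and enhancers and cannot occur on a histone tail that is trimethylated. The epiblast and the PrE separate from a common inner cell mass, where NANOG, SOX2 and OCT4 mark the first and GATA6, GATA4, SOX17 and PDGFRA the second.

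Promoter sequences are shown for genes on which the comparison turns: Foxa2, Adora1 and Zmiz1, listed only in Oct4+ libraries, Klf15 and Zcchc24, listed only in Pdgfra+ libraries, and Wnt1, listed in all 6. Each run is the 250 bases before the RefSeq start (GRCm38.p6), 5′ to 3′ on the strand of the gene, with every CpG in capitals.
Foxa2 (chr2:148046970-148047219, minus strand): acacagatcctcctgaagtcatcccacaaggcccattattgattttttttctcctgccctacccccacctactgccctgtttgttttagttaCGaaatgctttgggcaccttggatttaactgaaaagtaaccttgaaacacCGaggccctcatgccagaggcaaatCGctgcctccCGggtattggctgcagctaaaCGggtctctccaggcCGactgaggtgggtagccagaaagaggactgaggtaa
Adora1 (chr1:134235458-134235707, minus strand): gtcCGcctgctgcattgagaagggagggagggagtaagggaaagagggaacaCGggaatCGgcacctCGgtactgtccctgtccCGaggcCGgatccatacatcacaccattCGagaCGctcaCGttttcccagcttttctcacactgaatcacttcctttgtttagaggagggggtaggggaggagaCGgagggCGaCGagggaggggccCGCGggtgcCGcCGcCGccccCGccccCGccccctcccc
Zmiz1 (chr14:25458935-25459184, plus strand): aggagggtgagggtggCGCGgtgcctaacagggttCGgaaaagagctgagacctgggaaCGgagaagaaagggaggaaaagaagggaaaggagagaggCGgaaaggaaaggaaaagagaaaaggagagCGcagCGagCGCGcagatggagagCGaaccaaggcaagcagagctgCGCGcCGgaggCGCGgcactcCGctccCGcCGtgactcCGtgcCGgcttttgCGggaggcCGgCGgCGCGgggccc
Klf15 (chr6:90462326-90462575, plus strand): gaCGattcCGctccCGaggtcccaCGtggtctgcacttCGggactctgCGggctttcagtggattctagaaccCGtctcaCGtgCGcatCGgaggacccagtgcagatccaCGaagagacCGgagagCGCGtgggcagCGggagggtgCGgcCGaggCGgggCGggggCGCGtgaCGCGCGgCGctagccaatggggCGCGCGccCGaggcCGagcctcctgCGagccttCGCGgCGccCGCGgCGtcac
Zcchc24 (chr14:25769073-25769322, minus strand): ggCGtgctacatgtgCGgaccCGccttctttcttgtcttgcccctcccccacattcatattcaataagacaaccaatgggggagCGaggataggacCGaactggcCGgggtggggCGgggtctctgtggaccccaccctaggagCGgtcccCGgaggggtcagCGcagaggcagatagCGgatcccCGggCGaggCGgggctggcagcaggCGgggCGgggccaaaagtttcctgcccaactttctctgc
Wnt1 (chr15:98789607-98789856, plus strand): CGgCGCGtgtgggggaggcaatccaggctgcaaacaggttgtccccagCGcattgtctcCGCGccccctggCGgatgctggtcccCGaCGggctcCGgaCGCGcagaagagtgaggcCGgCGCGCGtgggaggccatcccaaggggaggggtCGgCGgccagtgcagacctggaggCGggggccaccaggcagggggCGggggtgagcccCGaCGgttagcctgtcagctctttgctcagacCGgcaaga
These windows held 6, 19, 25, 37, 16 and 23 CpG dinucleotides.

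Labels of the sort were checked on the H3K27ac lists of the same populations. Of 8 markers of OCT4-positive cells, 6, 5 and 7 had an H3K27ac promoter peak in the 3 Oct4+ libraries and 1, 1 and 2 in the 3 Pdgfra+ libraries. Of 8 markers of PDGFRA-positive cells, 2, 4 and 0 had one in Oct4+ and 6, 5 and 6 in Pdgfra+. In these full lists 32.2 ± 13.9% of all genes had such a peak in Oct4+ and 19.0 ± 3.42% in Pdgfra+. With lists held to their strongest 4792 peaks, the OCT4 markers gave 5, 3 and 7 against 1, 1 and 2. The PDGFRA markers then gave 0, 0 and 0 against 6, 5 and 6, where all genes had 10.4 and 16.8%. In full lists, Nanog, Sox2 and Tdgf1 were acetylated in 3 Oct4+ and 0 Pdgfra+ lists, and Pdgfra in 0 and 3. Other markers were less clear: Klf4 was in 3 and 3, Gata6 and Col4a1 in 2 and 3, and Esrrb, Sox17 and Dab2 in 0 and 0. Each marker was read at the outermost annotated start of its gene, so a peak at a start further in was not counted. Of 8 fibroblast markers, Twist1 had a peak in Oct4+ replicate 2, and the other 7, Col1a1 and Col3a1 among them, had none in any list.

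The 6 H3K27me3 lists differed widely in length. Replicates 1, 2 and 3 held 1629, 2948 and 5785 peaks in Oct4+ and 1143, 2841 and 6151 in Pdgfra+, with median widths of 3102, 4414 and 7374 bp against 2258, 3482 and 8230 bp. Replicate 1 was the shortest list and replicate 3 the longest in both populations, so length and width moved with the replicate number rather than with the population. Lists were therefore read in full (all peaks) and held to the strongest 1143 peaks by total signal (equal peaks), the length of the shortest list. The weakest peak kept and the strongest left out were close: 9715 and 9708 in Oct4+ replicate 1, 105252 and 105237 in Oct4+ replicate 3, and 100395 and 100365 in Pdgfra+ replicate 3, in units of total signal.

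A promoter was the window from 1000 bp before to 100 bp after the start of each of 21938 protein-coding genes, and a gene counted as marked where any peak touched it. The start was the outermost annotated one, so a peak at a start further in counted as gene body. With all peaks, 1005, 1916 and 3463 genes were marked in Oct4+ and 458, 1078 and 2915 in Pdgfra+. The ranges overlapped, and the means of 2128 ± 1243 and 1484 ± 1278 genes (SD, n = 3 each) did not differ beyond the spread between libraries (exact permutation p = 0.60, adjusted p = 0.686 over 8 tests, two-sided). Without Oct4+ replicate 3 the difference of 644 genes turned to -23.2. With equal peaks, 738, 854 and 1028 genes were marked in Oct4+ and 458, 590 and 951 in Pdgfra+, or 873 ± 146 against 666 ± 255 (exact permutation p = 0.30, adjusted p = 0.686). This difference of 207 genes ranged from 102.8 without Pdgfra+ replicate 1 to 349 without Pdgfra+ replicate 3, and was 130 without Oct4+ replicate 3. Between libraries of the same number, Oct4+ had 547, 838 and 548 more marked genes with all peaks and 280, 264 and 77 more with equal peaks. The labels do not say whether equal numbers mark pairs. With 3 libraries against 3, the exact test cannot go below p = 0.10.

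Peaks of the Oct4+ libraries lay on promoters more often than those of the Pdgfra+ libraries. Of all peaks, 60.2, 62.0 and 55.0% touched a promoter in Oct4+ and 39.4, 36.3 and 42.2% in Pdgfra+, ranges that did not overlap. Among equal peaks the shares were 63.3, 70.3 and 77.4% against 39.4, 48.7 and 65.8%, and Pdgfra+ replicate 3 then passed Oct4+ replicate 1. Peaks that touched neither a promoter nor a gene body made up 11.4, 13.3 and 21.7% of the Oct4+ lists and 17.1, 17.7 and 25.2% of the Pdgfra+ lists. These shares were chosen after their values were seen and were not tested.

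**Figure D1:**
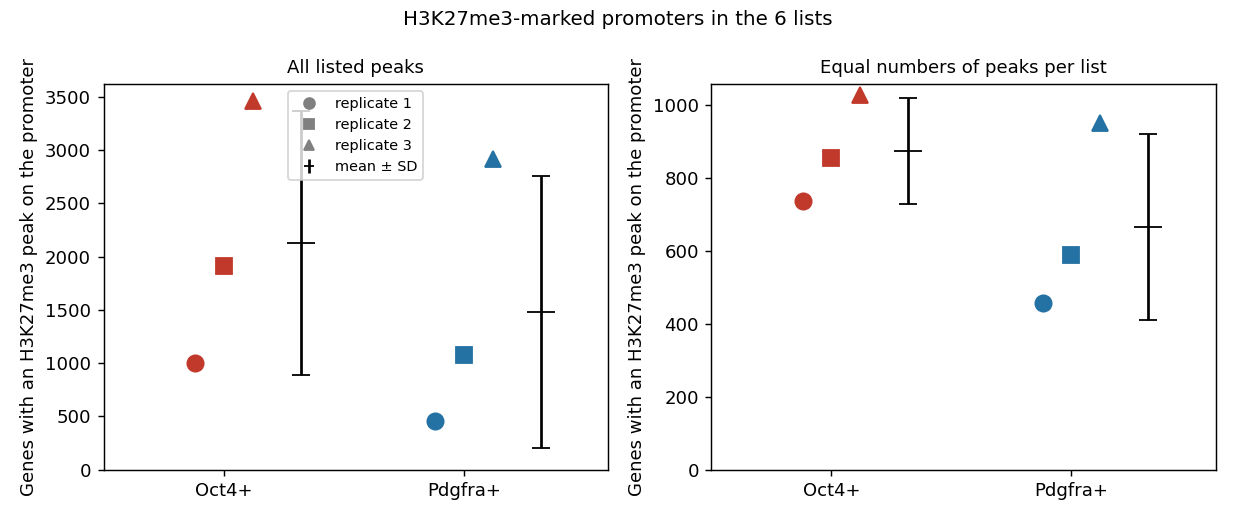
Genes with an H3K27me3 peak on the promoter (vertical axis, number of genes) in each Oct4+ (red) and Pdgfra+ (blue) library, with all peaks on the left and 1143 peaks per list on the right. Symbols give the replicate number, and bars the mean ± SD of 3 libraries. Replicate 3 is highest in both populations, and the populations overlap in both panels.

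Over gene bodies the populations were closer. With all peaks, 1402, 2407 and 4205 genes were touched in Oct4+ and 805, 1759 and 3801 in Pdgfra+ (2671 ± 1420 against 2122 ± 1531, exact permutation p = 0.60, adjusted p = 0.686). With equal peaks the numbers were 1016, 1077 and 1226 against 805, 905 and 1241 (1106 ± 108 against 984 ± 228, exact permutation p = 0.50, adjusted p = 0.686). The all-peak difference of 550 genes turned to -217 without Oct4+ replicate 3 and to -109 without Pdgfra+ replicate 1. The equal-peak difference of 123 genes turned to -5.67 where at least 10% of the gene body had to be covered, and was 62.8, 33.3 and 251 without Oct4+ replicate 3, Pdgfra+ replicate 1 and Pdgfra+ replicate 3.

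Gene by gene, 186 genes carried a promoter peak in all 3 Oct4+ lists and in no Pdgfra+ list (0.848% of the genes), 14 in all 3 Pdgfra+ lists and in no Oct4+ list (0.0638%), and 190 in all 6 (0.866%). They are called Oct4-only, Pdgfra-only and shared here. The 186 genes lay under 179 separate merged regions, so few of them shared a peak, and 170 of them had no Pdgfra+ peak in the gene body either. With equal peaks the numbers were 107 (0.488%), 27 (0.123%) and 93 (0.424%). Only 29 genes (0.132%) were Oct4-only and 8 (0.0365%) Pdgfra-only in both settings. Of the 107, 78 had a promoter peak in a full Pdgfra+ list, and 19 of the 27 had one in a full Oct4+ list.

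The excess of Oct4-only genes depended on how the lists were held to 1 size. Where each list was held to its 458 best ranked promoter-marked genes instead of 1143 peaks, an alternative chosen after the data were seen, 29 genes were Oct4-only and 27 Pdgfra-only, with 29 shared. Leaving a library out can only add genes: with all peaks Oct4-only rose to 480 without Oct4+ replicate 1 and to 432 without Pdgfra+ replicate 3, Pdgfra-only to 101 without Pdgfra+ replicate 1, 49 without Oct4+ replicate 3 and 29 without Pdgfra+ replicate 2, and shared to 442 without Pdgfra+ replicate 1. With equal peaks Oct4-only rose to 205 without Oct4+ replicate 1 and 168 without Oct4+ replicate 3. Pdgfra-only rose there to 84, 41 and 43 without Pdgfra+ replicates 1, 2 and 3 and to 43 without Oct4+ replicate 3, and shared to 158 without Pdgfra+ replicate 1.

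Agreement between lists was read as the shared fraction of marked genes (genes in both lists over genes in either). With equal peaks it averaged 0.404 (0.310 to 0.507) over the 3 pairs of Oct4+ lists, 0.287 (0.206 to 0.366) over the 3 pairs of Pdgfra+ lists and 0.2499 (0.180 to 0.378) over the 9 pairs between populations. With all peaks the averages were 0.432, 0.266 and 0.284, so Pdgfra+ lists then shared less with each other than with Oct4+ lists. The longest list of each population, replicate 3, had 2152 marked genes in common, which was 62.1% of those in Oct4+ and 73.8% of those in Pdgfra+. Another 1311 were marked in Oct4+ replicate 3 alone and 763 in Pdgfra+ replicate 3 alone.

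Transcription factors of the endoderm were the first group examined. Of 17, 3, 6 and 12 had a promoter peak in Oct4+ replicates 1, 2 and 3 and 2, 1 and 5 in Pdgfra+, against 4.58, 8.73 and 15.8% of all genes in Oct4+ and 2.09, 4.91 and 13.3% in Pdgfra+. With equal peaks the numbers were 3, 4 and 8 against 2, 1 and 3, which overlapped, where 3.98 ± 0.665% of all genes were marked in Oct4+ and 3.04 ± 1.16% in Pdgfra+. Marked in at least 1 Oct4+ list and no Pdgfra+ list were 8 of the 17 (47.1%, against 5.93% of all genes), and in the other direction 1 (5.88%, against 3.49%). Gata4, Gata6, Sox17, Sox7, Foxa2, Hhex and Foxq1 were among the 8. The gene in the other direction was Cdx1, an intestinal homeobox factor, in Pdgfra+ replicate 3. Over the list, the median share of promoter and gene body under H3K27me3 was 15.99% in Oct4+ and 0% in Pdgfra+.

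Sox7 (chr14:63943673-63950732) was the member called Oct4-only. It encodes an SRY-box factor of the PrE. Its promoter peak was 2.86, 3.51 and 11.7 kb wide in Oct4+ replicates 1, 2 and 3, at ranks 236, 1358 and 799 of each list, and no Pdgfra+ list held a peak. The peaks covered 22.6, 32.6 and 98.8% of the promoter and gene. The second of these ranks fell outside the strongest 1143, so Sox7 was not called with equal peaks.

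Foxa2 (chr2:148042877-148046969), a forkhead pioneer factor of the endoderm, was under wide domains of 14.6 and 24.2 kb in Oct4+ replicates 2 and 3, at ranks 134 and 232. Neither Oct4+ replicate 1 nor any Pdgfra+ list had a peak there. Gata6, the factor that starts the PrE programme, had a promoter peak of 3.89 kb in Oct4+ replicate 1 and 13.1 kb in replicate 3, and its gene was touched in all 3 Oct4+ lists (10.01, 11.9 and 16.8% covered) and in no Pdgfra+ list. Gata4 had a promoter peak only in Oct4+ replicate 3, but 9.63, 10.6 and 27.8% of its promoter and gene was covered in Oct4+ and 0% in each Pdgfra+ list. The peaks within Gata4 thus lay mostly downstream of its outermost annotated start. Whether they lay on a start further in was not tested.

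Sox17 was 50.6, 71.3 and 100% covered in Oct4+ and 0% in Pdgfra+, with the promoter itself under a peak in replicates 2 and 3. With all peaks, 4 members of the list were marked in at least 1 list of both populations. Among them Sox18, an SRY-box factor of the endothelium, was the member in all 6 lists. These covered 100% of it, at ranks 39, 199 and 520 in Oct4+ and 19, 154 and 736 in Pdgfra+.

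Genes for endoderm matrix and surface proteins were marked almost only in Oct4+. Of 21, 4, 8 and 11 were marked in Oct4+ and 0, 0 and 1 in Pdgfra+, and with equal peaks 3, 4 and 5 against 0, 0 and 0. The populations did not overlap in either setting, which with equal peaks also held for visceral endoderm secreted and imprinted genes. Mean shares of the matrix and surface genes were 36.5 and 1.59% with all peaks, against 9.70 and 6.76% of all genes. With equal peaks they were 19.0 and 0%, against 3.98 and 3.04%, so 0 of 21 in Pdgfra+ is close to the share of all genes. By the difference in mean share the list came first of the 25 with all peaks (34.9 percentage points), but with equal peaks its 19.0 points were below those of Gata (27.8), neural (22.7) and Sox genes (21.1). With 458 genes per list the counts were 3, 2 and 1 against 0, 0 and 0, where those of the endoderm transcription factors were 2, 3 and 3 against 2, 1 and 1 and those of the 19 Sox genes 4, 6 and 6 against 1, 2 and 3. In at least 1 Oct4+ list and no Pdgfra+ list were 10 of the 21 (47.6%, against 5.93% of all genes): Pdgfra, Col4a1, Col4a2, Lama1, Lamb1, Lrp2, Amn, Fst, Thbd and Fgfr4. None was marked only in Pdgfra+ (0%, against 3.49%). Gene bodies of 12 members were touched in some Oct4+ list and of 2, Fgfr2 and Fgfr3, in some Pdgfra+ list.

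Col4a1 (chr8:11198423-11312826) and Col4a2 (chr8:11312805-11449287) encode the chains of type IV collagen, the network of basement membranes, and start head to head. A single peak of 2.99, 4.24 and 9.39 kb covered both starts in Oct4+ replicates 1, 2 and 3, at ranks 191, 621 and 964, all within the strongest 1143. No Pdgfra+ list held a peak in either gene. The 2 genes thus rest on 1 region. Lamb1 (chr12:31265234-31329644), a laminin beta chain of the same membrane, had peaks of 2.28, 4.095 and 7.33 kb that were among the weaker ones, at ranks 1618, 2572 and 2141, and none in Pdgfra+.

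Pdgfra itself, the receptor used for the sort, had promoter peaks of 4.89 and 12.1 kb in Oct4+ replicates 2 and 3 and none elsewhere, and was 0, 5.96 and 13.3% covered in Oct4+ and 0% in each Pdgfra+ list. Fgfr3 (chr5:33721674-33737068), a receptor of FGF signalling, had a stronger domain than the other endoderm genes named here. It ranked 5, 5 and 5 in the Oct4+ lists, 11.3, 30.6 and 55.1 kb wide. In Pdgfra+ it was listed only in replicate 3, at rank 4787 and 5.83 kb.

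Visceral endoderm secreted genes followed with lower numbers. Of 18, 2, 3 and 7 were marked in Oct4+ and 0, 1 and 4 in Pdgfra+, which overlapped, and with equal peaks 1, 2 and 1 against 0, 0 and 0. The mean share was 22.2% in Oct4+ and 9.26% in Pdgfra+ against 9.70 and 6.76% of all genes, and with equal peaks 7.41% against 3.98% of all genes in Oct4+, about 1 gene. In Pdgfra+ it was then 0%, against 3.04% of all genes. Dkk1, a secreted Wnt antagonist of the anterior visceral endoderm, had weak peaks of 1.96, 4.08 and 4.79 kb at ranks 1558, 1656 and 2423 in Oct4+ and none in Pdgfra+. Ihh, the hedgehog ligand made by visceral endoderm, was 95.2, 98.1 and 100% covered in Oct4+, at ranks 60, 133 and 159, and was listed in Pdgfra+ only in replicate 3, at rank 5258 with 35.2% covered.

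**Figure D2:**
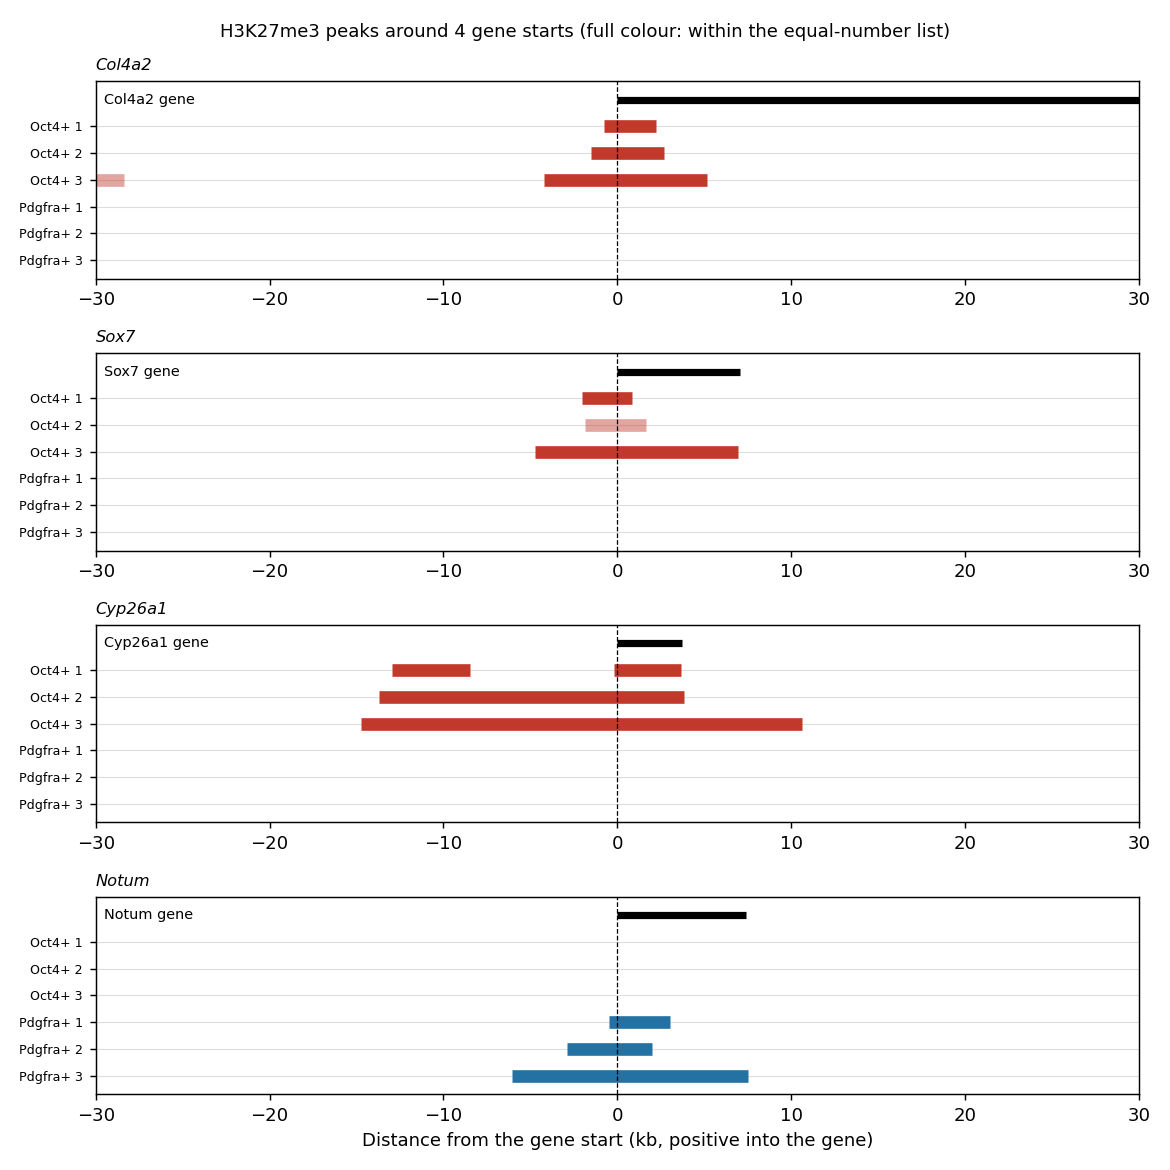
H3K27me3 peaks within 30 kb of the starts of Col4a2, Sox7, Cyp26a1 and Notum (horizontal axis, kb from the start, positive into the gene), 1 row per library, Oct4+ in red and Pdgfra+ in blue, with pale bars for peaks outside the strongest 1143. The first 3 starts are under a peak in the 3 Oct4+ libraries and the last in the 3 Pdgfra+ libraries, and in each case the peak is widest in replicate 3.

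The strongest genes that were Oct4-only in both settings did not belong to these lists. The 10 of the 29 with the best mean rank were Adora1, Cyp26a1, Cyp26c1, Mmp15, Myl3, Podxl, Tet3, Wnk2, Zbtb42 and Zmiz1. Tet3 (chr6:83362373-83459084), which oxidises methylated cytosine, ranked 130, 9 and 8 in the Oct4+ lists with peaks of 4.73, 26.6 and 59.7 kb. Zbtb42, a zinc finger gene, was 100% covered in all 3 Oct4+ lists, at ranks 27, 162 and 77. Adora1, an adenosine receptor, ranked 85, 73 and 86, and Myl3, a cardiac myosin light chain, 88, 150 and 71. None of the 10 had a peak on promoter or gene in a Pdgfra+ list.

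Cyp26a1 (chr19:37697798-37701536) and its neighbour Cyp26c1 encode enzymes that degrade retinoic acid. In Oct4+ replicate 1 they had separate peaks of 3.86 and 4.46 kb, and in replicates 2 and 3 they lay under 1 domain of 17.6 and 25.3 kb, at ranks 28 and 123. They therefore count as 1 region in those lists. Podxl, a sialomucin of the apical surface of endoderm and pluripotent cells, had peaks of 3.48, 11.7 and 34.7 kb at ranks 641, 99 and 105. Mmp15, a membrane-bound matrix metalloproteinase, ranked 56, 309 and 621.

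The 8 genes that were Pdgfra-only in both settings were Hdac11, Plch2, Notum, Zcchc24, Klf15, Nup210, Slurp1 and Dlgap3. Notum (chr11:120653788-120661175), a secreted carboxylesterase that inactivates Wnt proteins, had peaks of 3.52, 4.87 and 13.6 kb in Pdgfra+ replicates 1, 2 and 3, at ranks 68, 514 and 548, and none in Oct4+. Hdac11, a histone deacetylase, ranked 177, 176 and 2, where the last was a domain of 86.4 kb. Klf15, a Krüppel-like factor, ranked 333, 647 and 198, and Zcchc24, a zinc finger gene, 428, 333 and 137.

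Nup210, a subunit of the nuclear pore, was near the end of the shortest list, at rank 1062 in Pdgfra+ replicate 1, then 968 and 150. Dlgap3, a postsynaptic scaffold gene, ranked 688, 460 and 1076. Plch2, a phospholipase C gene, is not a clean case: its gene body was 9.62, 8.27 and 49.0% covered in Oct4+ and 2.74, 47.6 and 98.0% in Pdgfra+. Slurp1, a secreted protein of keratinocytes, was also touched in Oct4+ replicate 3 (2.69%). Wnt3a was added with equal peaks, its promoter peak at ranks 772, 299 and 87 in Pdgfra+ and 1452 in Oct4+ replicate 3 alone. Its gene body was touched in 2 Oct4+ and 2 Pdgfra+ lists, with a mean of 13.0 and 31.5% of promoter and gene covered.

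Shared genes included domains near the top of both populations' lists. The 10 with the best mean rank were Adcyap1r1, Cabp7, Egr4, Emx1, Hmx1, Nptx1, Prrt4, Sema5b, Vax2 and Wnt7a, of which Emx1, Hmx1 and Vax2 are homeobox genes. Sema5b, an axon guidance gene, ranked 3, 24 and 62 in Oct4+ and 1, 39 and 72 in Pdgfra+. Hmx1, a homeobox gene of craniofacial tissue, had domains of 6.94, 25.4 and 45.15 kb in Oct4+ and 3.55, 12.6 and 36.4 kb in Pdgfra+. At the 190 shared promoters the median peak width was 3382, 5889 and 11581 bp in Oct4+ and 2581, 4287 and 12740 bp in Pdgfra+ (6950 ± 4201 against 6536 ± 5440 bp, exact permutation p = 0.90, adjusted p = 0.90). That difference of 415 bp turned to -1901, -1563 and -710 bp without Oct4+ replicate 3 and Pdgfra+ replicates 1 and 2.

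**Figure D3:**
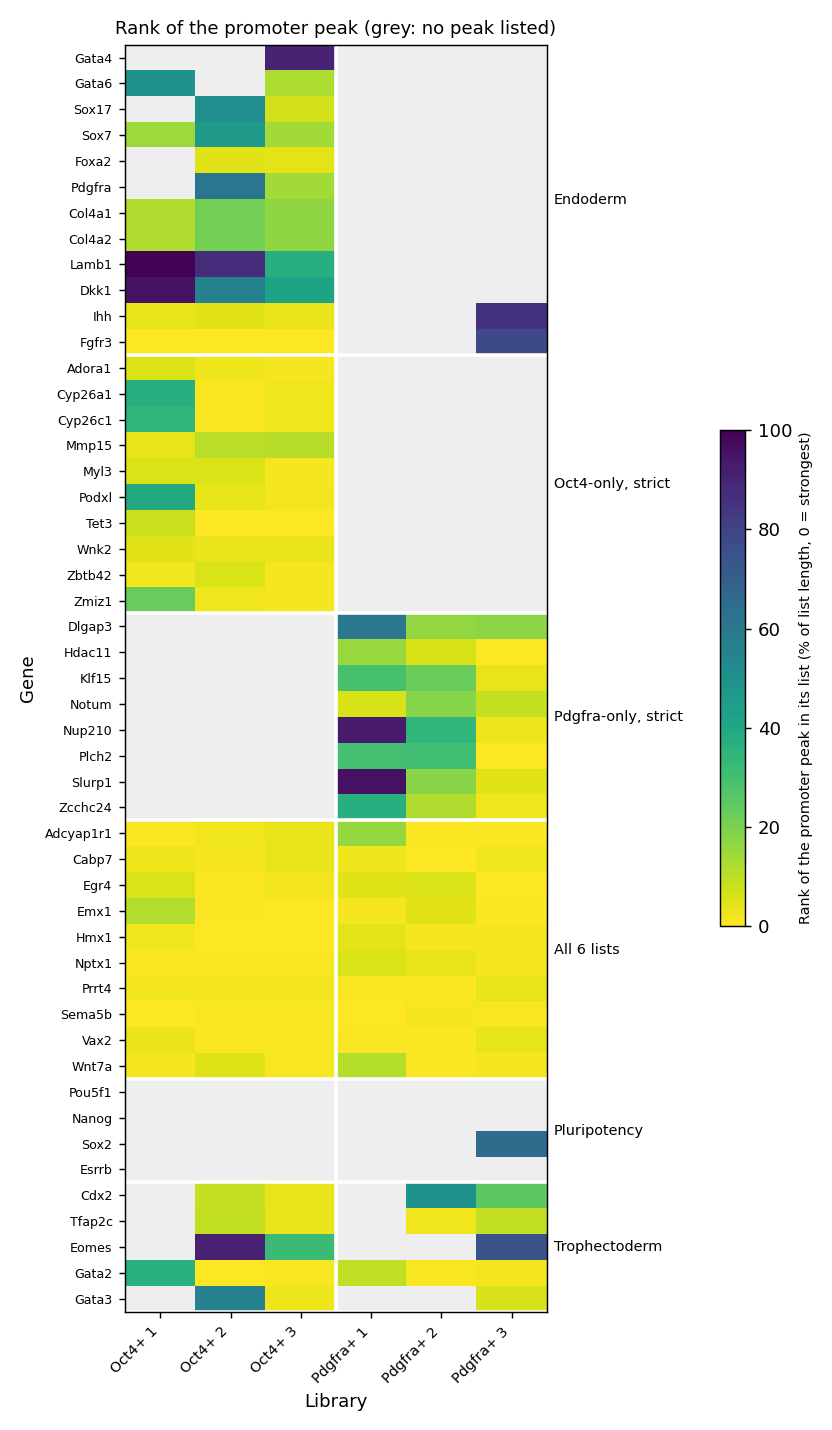
Rank of the promoter peak by total signal, as a percentage of the length of its list (colour, yellow strongest, grey no peak), for named genes (rows) in the 6 libraries (columns). Endoderm genes and the strict Oct4-only genes are grey in the Pdgfra+ columns except Ihh and Fgfr3 in replicate 3, and Pou5f1, Nanog and Esrrb are grey throughout.

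Promoters of pluripotency factors seldom carried H3K27me3 in either population. Of 25, 0, 0 and 1 were marked in Oct4+ and 0, 0 and 2 in Pdgfra+, fewer than the share of all genes in each library, and 22 were marked in no list. Pou5f1 and Nanog had no peak on promoter or gene in any of the 6 lists. The 3 marked genes were Dppa3, a maternal germline factor, in Oct4+ replicate 3, and Sox2 and Klf2 in Pdgfra+ replicate 3. The Sox2 peak was 5.58 kb at rank 3976 and covered 83.9% of promoter and gene. Gene bodies of 5 members were touched in some Pdgfra+ list and of 2 in some Oct4+ list. Fgf4 and Nr5a2, named after their values were seen, were touched in 2 Pdgfra+ and 0 Oct4+ lists, and Dppa3 in 3 Oct4+ and 0 Pdgfra+ lists. Esrrb had no peak at its outermost annotated start, but its gene was 2.08, 11.7 and 39.0% covered in Oct4+ and 1.35, 8.48 and 44.2% in Pdgfra+. Starts further in were not read separately.

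Formative and primed genes were marked in both. Of 17, 4, 5 and 11 had a promoter peak in Oct4+ and 2, 3 and 11 in Pdgfra+. The mean share was 39.2 and 31.4%, against 9.70 and 6.76% of all genes. Pou3f1, a POU factor of the primed epiblast, was shared, at ranks 616, 418 and 258 in Oct4+ and 80, 79 and 50 in Pdgfra+. Otx2, named after its values were seen, was listed in all 3 Oct4+ lists (ranks 1492, 2067 and 921) and in Pdgfra+ replicate 3 (rank 3778). Foxd3, a forkhead factor of the epiblast chosen in the same way, was listed in Pdgfra+ replicates 2 and 3 (ranks 1664 and 1989) and in no Oct4+ list.

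Trophectoderm genes were marked in both populations with more in Oct4+, as were all genes. Of 25, 4, 10 and 16 were marked in Oct4+ and 2, 5 and 12 in Pdgfra+, and with equal peaks 4, 7 and 10 against 2, 4 and 6. These ranges overlapped. Gata2 was shared, at ranks 597, 10 and 52 in Oct4+ and 109, 28 and 115 in Pdgfra+, as was Ascl2, a helix-loop-helix factor of the placenta that covered 100% of its gene in Oct4+ and 71.0 to 100% in Pdgfra+. Cdx2, a homeobox factor that specifies trophectoderm, was listed in replicates 2 and 3 of both, at ranks 258 and 197 in Oct4+ and 1377 and 1545 in Pdgfra+.

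Tfap2c, an AP-2 factor, was likewise in replicates 2 and 3 of both, at ranks 271 and 224 against 63 and 569. Eomes was weak, at ranks 2673 and 1851 in Oct4+ and 4620 in Pdgfra+ replicate 3. Gata3 was 8.16, 44.8 and 63.8% covered in Oct4+ and 6.60, 13.7 and 64.1% in Pdgfra+.

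Regulators of other embryonic lineages were often marked in both. Of 25 neural regulators, 8, 19 and 23 were marked in Oct4+ and 3, 14 and 22 in Pdgfra+. Of 39 Hox genes the numbers were 9, 18 and 37 against 5, 14 and 31, and of 25 mesendoderm regulators 7, 15 and 20 against 3, 10 and 19. Mean shares were 66.7 and 52% for neural, 54.7 and 42.7% for Hox and 56 and 42.7% for mesendoderm genes. All genes had 9.70 and 6.76%. Replicate 3 of the populations was close for neural and mesendoderm regulators. With equal peaks the neural numbers were 5, 15 and 22 against 3, 9 and 13, and the Hox numbers 5, 11 and 30 against 5, 9 and 20. All genes then had 3.98 and 3.04%. With all peaks, Hoxa7 was the Hox gene in all 6 lists, and Neurog2, Emx1 and Six3 the neural ones.

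Families of transcription factors were read next. Sox genes (19) were marked 5, 10 and 15 times in Oct4+ and 1, 2 and 10 times in Pdgfra+, and Gata genes (6) 3, 3 and 5 times against 1, 1 and 3. Gata5, an endoderm GATA factor, ranked 29, 443 and 310 in Oct4+ and 2034 in Pdgfra+ replicate 3 alone, and was Oct4-only with equal peaks. Fox genes (44) gave 8, 19 and 26 against 4, 12 and 22, with Foxi2 Oct4-only and Foxi3 shared. T-box genes (17) gave 4, 9 and 10 against 3, 5 and 9. The mean shares were 52.6 and 22.8% for Sox and 61.1 and 27.8% for Gata genes. They were 40.2 and 28.8% for Fox and 45.1 and 33.3% for T-box genes, against 9.70 and 6.76% of all genes. Tbx10 was Pdgfra-only with all peaks, at ranks 389, 857 and 1479, and Tbx1 and Tbx2 were shared.

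**Figure D4:**
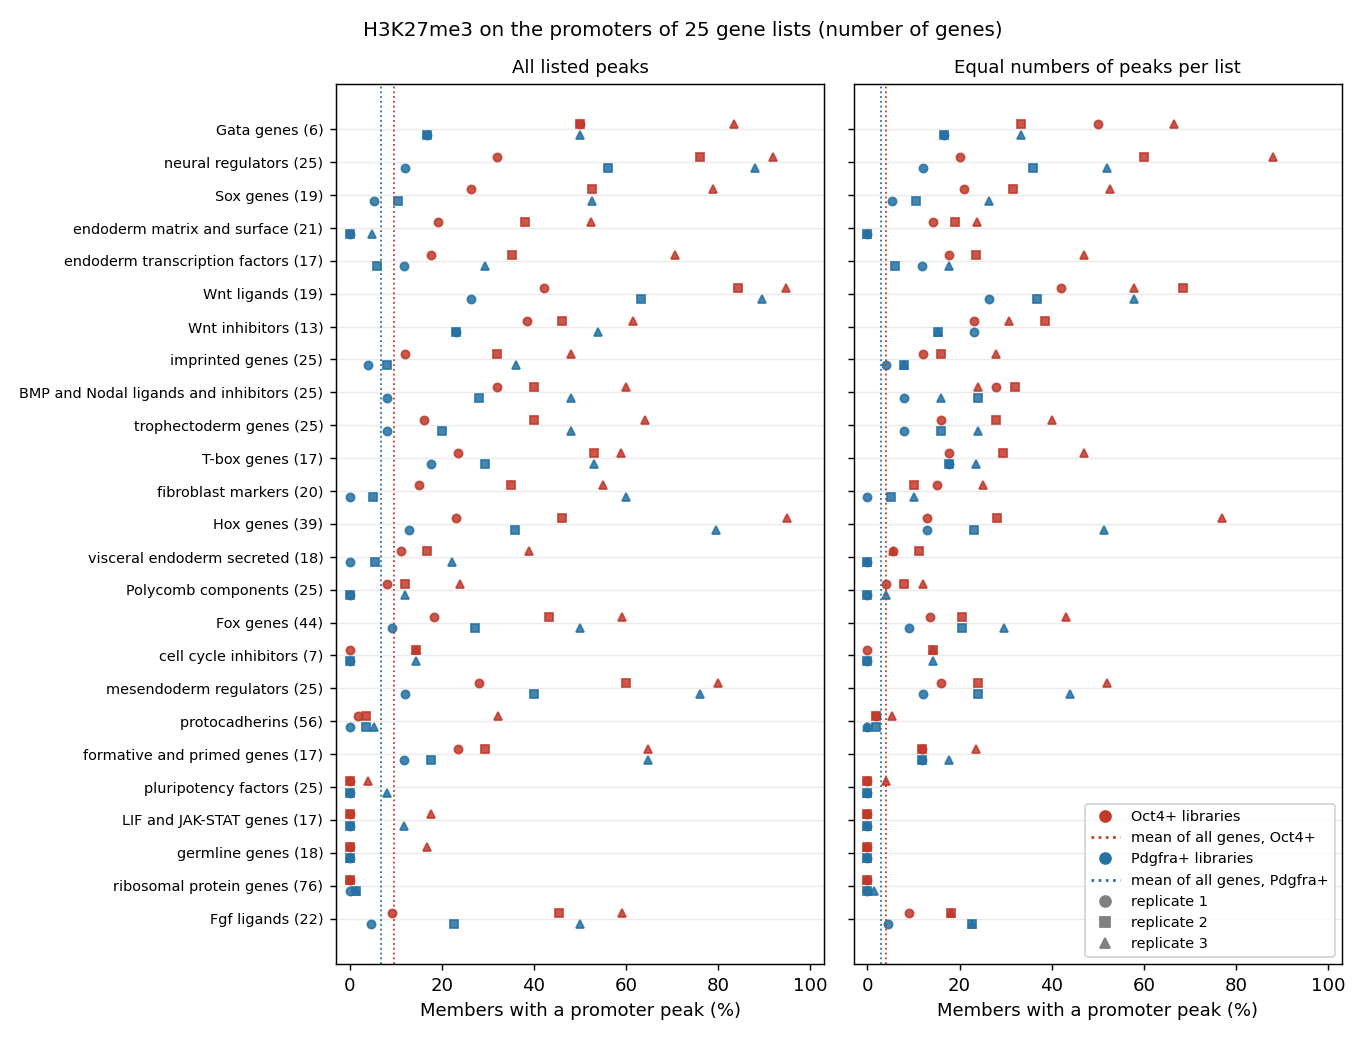
Percentage of the members of 25 gene lists with an H3K27me3 promoter peak (horizontal axis) in each Oct4+ (red) and Pdgfra+ (blue) library, with all peaks on the left and 1143 peaks per list on the right, and dotted lines at the mean of all genes in each population. Endoderm matrix and surface genes are the list whose populations do not overlap in either panel, and ribosomal protein genes lie at or near 0% in both, while germline genes reach 16.7% in Oct4+ replicate 3 and pluripotency factors 8% in Pdgfra+ replicate 3 on the left.

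Among signalling genes, Wnt ligands were marked 8, 16 and 18 times of 19 in Oct4+ and 5, 12 and 17 times in Pdgfra+, with Wnt1, Wnt2b and Wnt7a shared. Wnt1, a ligand of midbrain development, ranked 883, 76 and 146 in Oct4+ and 729, 285 and 202 in Pdgfra+. Wnt inhibitors (13) were marked 5, 6 and 8 times against 3, 3 and 7, and held genes of both kinds: Dkk1 and Frzb were Oct4-only and Notum Pdgfra-only. Frzb, a secreted frizzled-related protein, had peaks of 2.502, 5.38 and 7.25 kb in Oct4+. With equal peaks Wnt4 and Sfrp1 were Oct4-only and Wnt3a Pdgfra-only. With all peaks, mean shares were 73.7 and 59.6% for ligands and 48.7 and 33.3% for inhibitors, where all genes had 9.70 and 6.76%.

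Fgf ligands (22) were marked 2, 10 and 13 times against 1, 5 and 11, and with equal peaks 2, 4 and 4 times against 1, 5 and 5. BMP and Nodal ligands and inhibitors (25) gave 8, 10 and 15 against 2, 7 and 12. With all peaks, mean shares were 37.9 and 25.8% for Fgf ligands and 44 and 28% here, where all genes had 9.70 and 6.76%. Gdf7, a BMP family ligand, was shared, at ranks 1547, 278 and 352 in Oct4+ and 27, 69 and 580 in Pdgfra+. LIF and JAK-STAT genes (17) were marked 0, 0 and 3 times against 0, 0 and 2, a mean of 5.88 and 3.92%, below the 9.70 and 6.76% of all genes.

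Imprinted genes (25) were marked 3, 8 and 12 times against 1, 2 and 9. Their mean share was 30.7 and 16%, against 9.70 and 6.76% of all genes. With equal peaks it was 18.7 and 6.67%, against 3.98 and 3.04%. Dlk1, a paternally expressed Notch ligand, was Oct4-only with equal peaks, at ranks 793, 1138 and 511, and was listed in Pdgfra+ replicate 3 at rank 3964. Polycomb component genes themselves (25) were marked 2, 3 and 6 times against 0, 0 and 3, a mean of 14.7% in Oct4+ and 4% in Pdgfra+ against 9.70 and 6.76% of all genes. Protocadherins (56), the clustered cell adhesion genes, differed mainly in replicate 3: 1, 2 and 18 against 0, 2 and 3. Their mean was 12.5 and 2.98%, against 9.70 and 6.76% of all genes, of which 15.8% were marked in Oct4+ replicate 3. With equal peaks the protocadherin counts were 1, 1 and 3 against 0, 1 and 0. Those means of 2.98 and 0.595% were below the 3.98 and 3.04% of all genes. Germline genes (18) were marked 0, 0 and 3 times against 0, 0 and 0, cell cycle inhibitors (7) 0, 1 and 1 against 0, 0 and 1, and ribosomal protein genes (76) 0, 0 and 0 against 0, 1 and 1. The mean shares were 5.56 and 0% for germline genes, 9.52 and 4.76% for cell cycle inhibitors and 0 and 0.877% for ribosomal protein genes, each below that of all genes.

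Fibroblast markers (20), which bear on the feeder cells, were marked 3, 7 and 11 times in Oct4+ and 0, 1 and 12 times in Pdgfra+, and with equal peaks 3, 2 and 5 against 0, 1 and 2. The mean share was 35 and 21.7%, against 9.70 and 6.76% of all genes. With equal peaks it was 16.7 and 5%, against 3.98 and 3.04%. Meox2, a mesodermal homeobox gene, was Oct4-only, with peaks of 4.51, 3.04 and 4.16 kb. Twist2 was Oct4-only with equal peaks, at ranks 114, 339 and 827, and was listed in Pdgfra+ replicate 3 at rank 2716. The part of feeder cells in the H3K27me3 lists was not tested, and fewer cells of a type and less signal per cell cannot be told apart in these sorted bulk samples.

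H3K27ac at the same genes is a measure that the calls did not use. To allow for the length of the H3K27ac lists (38619, 65131 and 8574 peaks in Oct4+ and 4792, 7128 and 4861 in Pdgfra+), each was held to its strongest 4792 peaks. An H3K27ac promoter peak was then found at 1.08, 2.15 and 0% of the 186 Oct4-only genes in the Oct4+ libraries, where the mean of all genes was 10.4 ± 0.717%, and at 19.4, 17.2 and 15.6% in the Pdgfra+ libraries, where it was 16.8 ± 1.31%. The groups did not overlap. Relative to all genes of the same library the difference was -9.37 ± 1.65 percentage points in Oct4+ and 0.632 ± 3.08 in Pdgfra+, a gap of -10.003 points (exact permutation p = 0.10, the smallest that this design allows, adjusted p = 0.40). For the 107 genes called with equal peaks the gap was -4.60 points (exact permutation p = 0.30).

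With full H3K27ac lists the shares were 17.7, 37.6 and 0% in Oct4+ and 19.4, 23.1 and 15.6% in Pdgfra+, so the first 2 Oct4+ libraries listed both marks at part of these genes. The gap relative to all genes was -14.1 points (exact permutation p = 0.10, adjusted p = 0.40). H3K4me1, a mark of enhancers and of promoter flanks, gave a gap of -0.955 points with lists held to 1074 peaks, from 0.0589 ± 1.46 points in Oct4+ against 1.01 ± 0.927 in Pdgfra+ (exact permutation p = 0.40, adjusted p = 0.686).

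Of the 186 Oct4-only genes, 30 (16.1%) had an H3K27ac peak in at least 2 Pdgfra+ and no Oct4+ library with lists of equal length, against 1235 (5.63%) of all genes, and 0 had the opposite pattern, against 263 (1.199%) of all genes. Col4a1, Col4a2, Lamb1 and Sox7 were among the 30, as were P3h2, a collagen prolyl hydroxylase, Ntn4, a netrin of basement membranes, Gas6, a ligand of TAM receptors, Podxl and Flt1, which were picked from the 30 by eye. With full lists 11 (5.91%) had the pattern, against 121 (0.552%) of all genes, and 11 (5.91%) had the opposite pattern, against 2297 (10.47%) of all genes. Col4a1, Col4a2, Lamb1 and Sox7 were not among them, since 2, 2, 1 and 1 of the full Oct4+ lists held an H3K27ac peak at these promoters.

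The 14 Pdgfra-only genes showed the opposite arrangement. H3K27ac was listed at 3, 4 and 5 of them in the Oct4+ libraries (21.4, 28.6 and 35.7%) and at 0 in each Pdgfra+ library with lists of equal length, and at 57.1, 78.6 and 42.9% against 0% with full lists, where the mean of all genes was 32.2 ± 13.9% in Oct4+ and 19.0 ± 3.42% in Pdgfra+. For the 27 genes called with equal peaks the share was 14.8, 14.8 and 11.1% in Oct4+ with lists of equal length, close to the 10.4% of all genes, and a mean of 30.9% with full lists, and it was 0% in each Pdgfra+ library in both settings. Vegfc, Notum and Klf12 had it in at least 2 Oct4+ libraries in both settings. With full lists Klf15, Nup210, Zcchc24, Dclk2 and Oxr1 also had it, so that 8 of the 14 (57.1%, against 10.47% of all genes) were listed in at least 2 Oct4+ and no Pdgfra+ library. The number of genes is small and the difference was not tested. At the 190 shared genes H3K27ac was listed at 0.526, 1.05 and 0% in Oct4+ and 0.526, 0 and 0% in Pdgfra+ with lists of equal length, and at 16.8, 37.4 and 1.05% against 0.526, 0.526 and 0% with full lists.

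**Figure D5:**
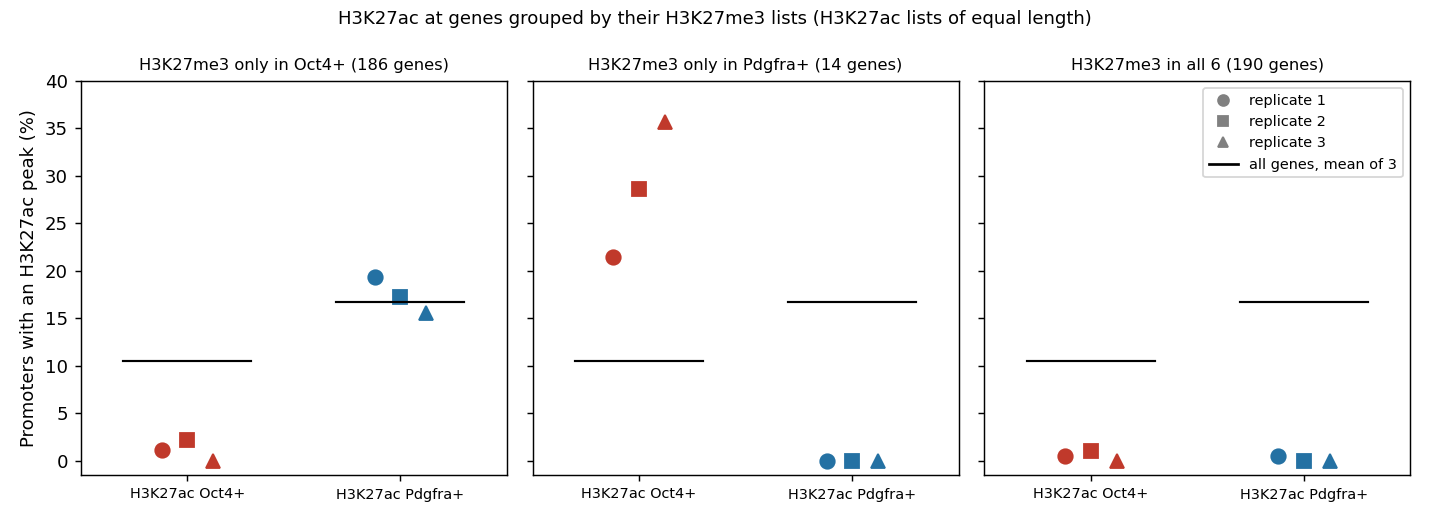
Percentage of promoters with an H3K27ac peak (vertical axis) in 3 Oct4+ (red) and 3 Pdgfra+ (blue) H3K27ac libraries held to 4792 peaks, for genes whose H3K27me3 promoter peak was listed only in Oct4+ (left), only in Pdgfra+ (middle) or in all 6 lists (right), with black lines at the mean of all genes. Genes with H3K27me3 only in Oct4+ have H3K27ac at 0 to 2.15% in Oct4+ and near the share of all genes in Pdgfra+. Those with it only in Pdgfra+ have H3K27ac at 21.4 to 35.7% in Oct4+ and 0% in Pdgfra+. Shared genes have 0 to 1.05% in either at this list length.

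Promoters of the called genes were rich in CpG. In the promoter windows of the GRCm38.p6 genome, the median was 3.36 CpG per 100 bases for the 186 Oct4-only genes, 5 for the 14 Pdgfra-only genes and 4.5 for the 190 shared genes, against 2.27 for all genes and 2.09 for the 17703 genes marked in no list. With equal peaks the medians were 4.18, 3.91 and 4.91. Oct4-only and Pdgfra-only genes did not keep 1 order between the settings.

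Chromosome 6 held more of the called genes than its share. It carries 5.07% of the genes, but held 11.8% of the Oct4-only, 21.4% of the Pdgfra-only and 19.5% of the shared genes. Of the 10 best ranked shared genes, Adcyap1r1, Egr4, Emx1, Prrt4, Vax2 and Wnt7a lie on it. So do Hdac11, Klf15 and Nup210 of the 8 genes Pdgfra-only in both settings, and Podxl and Tet3 of the 10 best ranked Oct4-only genes. Its share of all H3K27me3 peaks was 10.3, 8.18 and 7.45% in Oct4+ and 14.7, 10.7 and 8.45% in Pdgfra+, highest in the shortest lists. H3K4me1 lists of both populations also had 8.53 to 14.3% of their peaks there, and H3K27ac lists 4.71 to 6.34%. Without chromosome 6, 164 Oct4-only, 11 Pdgfra-only and 153 shared genes were left with all peaks and 92, 22 and 73 with equal peaks. No gene of chromosome X was called, and that chromosome held 0 to 1.31% of the peaks.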

How the data were processed

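H3K27me3 CUT&Tag was compared between Oct4+ and Pdgfra+ nEnd, 3 libraries each, grouped by the labels. The authors aligned reads to mm10 and called peaks per library against IgG. The submitters' processing notes name bcl2fastq 2.19.1, Bowtie2, SAMtools 1.12, deepTools, SEACR and bedtools 2.26.0. The deposited lists give each peak's total and maximum signal as whole numbers that differ in scale between libraries, so sequencing depth is unknown and signal was used to rank peaks within a list, apart from 1 alternative that set a common threshold across lists. Replicates were not pooled.

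Peaks were overlapped (1 base) with promoters and bodies of 21938 GENCODE M21 protein-coding genes (GRCm38) in Python 3.11.15 with NumPy 2.4.6 and pandas 2.3.3, and overlaps were checked with bedtools 2.31.1. Figures were drawn with Matplotlib 3.10.9. Calls were tested on simulated data. The 8 comparisons of library values used two-sided exact permutation tests with Benjamini-Hochberg adjustment. Alternatives covered promoter definition, ranking, list length, a common signal threshold, minimum coverage, each library left out and the replicate block, and, chosen after seeing the data, equal gene numbers and omission of chromosome 6.

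Named genes were the 10 genes called Oct4-only or Pdgfra-only in both settings with the best mean rank (all 8 for Pdgfra-only), the 10 best ranked shared genes, called or shared members of each of 25 gene lists, and a fixed set of lineage genes. Otx2 and Foxd3, and other list members given by their counts, were chosen after values were seen. Members and lists were chosen with earlier results of these data known. H3K27ac and H3K4me1 lists served as other readouts, and double positive and H3K9me3 lists were not used here. Some genes that the rule names are not reported here.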

Additional observations from a re-analysis of the deposited data

How the results depend on the processing

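The lists give no depth, so a gene without a peak may lie under the threshold of a short list. Of 72 alternative counts of called genes, 47 stayed within 1.5 times and 25 did not. Of 77 alternative differences, 69 kept their sign and their side of the threshold, but 23 of these changed in size by over 1.5 times, and 8 turned in sign. The causes were not tested, except that leaving a library out can only add called genes. With all peaks, a common threshold of total signal left 1 Oct4-only, 0 Pdgfra-only and 1 shared gene, and a promoter of 2 kb either side gave 22 Pdgfra-only genes. With equal peaks, the strongest 500 peaks gave 35, 13 and 24 genes, and Pdgfra-only genes numbered 43 with 2 kb either side, 43 with every annotated transcript start and 42 when ranked by maximum signal. Equal numbers of promoter-marked genes, chosen after seeing the data, gave 29 Oct4-only and 29 shared genes. With 1 library left out, the ranges with all peaks were 186 to 480 Oct4-only, 14 to 101 Pdgfra-only and 190 to 442 shared genes, and with equal peaks 118 to 205, 31 to 84 and 96 to 158. The differences then ranged from -23.2 to 1360 genes for promoters and from -217 to 1389 genes for gene bodies with all peaks, where -109 also turned in sign, and from -1901 to 3517 bp for width, where -1563 and -710 did. With equal peaks they ranged from 102.8 to 349 genes for promoters and from 33.3 to 251 for gene bodies. The strongest 500 peaks gave 68.7 and 14.7 genes, a common threshold 379 genes for promoters, and at least 10% coverage 73.7 genes for gene bodies with all peaks. The gene body difference with equal peaks was -5.67 where at least 10% had to be covered, and the width difference -89.7 bp with equal peaks. The H3K27ac gap with equal lists ranged from -11.7 to -8.61 points with 1 library left out, and was -4.60 points for genes called with equal peaks.

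Replicate numbers were not taken as pairs. Deviations of same-numbered libraries correlated at -0.0836, 0.00344 and -0.257 with all peaks and 0.169, 0.0847 and 0.209 with equal peaks, where each library correlated best with its own number. With the replicate block, the exact sign-flip permutation p was 0.25 for the promoter difference of 644 genes and for the H3K27ac gap of -10.003 points. This is the smallest that 3 pairs allow, so no test could pass 0.05 with or without the block.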
